A study of Mus musculus with 32 samples.

Results

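The genes described here encode enzymes that process foreign compounds in the mouse distal colon: cytochromes P450 of families 1 to 3 (Cyp), carboxylesterases (Ces), UDP-glucuronosyltransferases (Ugt), glutathione S-transferases (Gst) and sulfotransferases (Sult). Members were chosen by gene symbol and by signal: each needed a probe set that the platform annotation ties to 1 gene symbol of these families, and the brightest such probe set of a gene had to average above 5 on the deposited log2 scale over all 32 arrays. Of 97 measured genes of the families, 54 met this minimum and 43 did not, out of 18193 genes tested. The 54 were 20 Cyp, 9 Ces, 2 Ugt, 17 Gst and 6 Sult genes. Just inside the minimum lay Cyp1a1 (5.05), Cyp2j9 (5.07), Cyp2c23 (5.11) and Cyp2c54 (5.29), and just outside it lay Cyp2c29 (4.79), Ces1e (4.66), Ces1h (4.66) and Cyp2c70 (4.64). The minimum used the mean over all arrays, so a gene that was bright in a single group could pass through that group. Of the 54 this held for 1, Cyp1a1, whose mean was 4.93 over the 22 arrays other than treated KO, so its level in treated KO mice is given as a description only.

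RNA came from the distal colon of wild type mice (WT) and of mice with a knockout of Myd88 (KO), all of the C57 BL6NCr strain, with the knockout near congenic to it. Myd88 is the adaptor protein that links most Toll-like receptors, and the receptors of the IL-1 family, to NF-kB. Treated mice, aged 6 to 8 weeks, received azoxymethane (AOM, a colon carcinogen) by intraperitoneal injection at 10 mg/kg and, 1 week later, were given 2% dextran sodium sulfate (DSS, an agent toxic to colon epithelium) in the drinking water for 3 days before they were killed. Each genotype had 10 treated and 6 untreated mice, which gives 4 groups, with 1 Affymetrix array a mouse. The labels give no age or handling for the untreated mice, so treatment cannot be told apart from other differences between treated and untreated animals.

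Foreign compounds and endogenous lipids and hormones are usually made soluble in steps: P450 enzymes oxidize them, carboxylesterases split esters, and the conjugating enzymes add glucuronic acid, glutathione or sulfate before transporters export the product. In the colon these enzymes are made largely by the epithelium and meet compounds from diet and bacteria. Their transcription is governed by sensors such as the aryl hydrocarbon receptor (Ahr), the pregnane X receptor (Nr1i2) and the stress factor NRF2 (Nfe2l2), and AOM itself is activated by P450 oxidation, mainly by the enzyme that Cyp2e1 encodes.

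As a check of the labels, Myd88 in untreated animals averaged 8.40 ± 0.11 log2 units in WT and 7.67 ± 0.11 in KO mice (SD, n = 6 each). In treated animals it averaged 8.46 ± 0.12 in WT and 8.00 ± 0.31 in KO mice (SD, n = 10 each). The difference was -0.73 (adjusted p = 0.000925) without and -0.46 (adjusted p = 0.00104) with treatment. The untreated genotypes did not overlap, but 3 of the 10 treated KO arrays reached into the treated WT range. The deleted stretch of Myd88 is not given in the labels. All 9 epithelial markers were measured, with mean log2 signals of 11.76 to 11.87 in untreated WT and 11.74 to 11.86 in untreated KO mice. Treated WT arrays lay between 11.48 and 11.99 and treated KO arrays between 11.82 and 12.28. Markers of dividing cells were lower in both genotypes after treatment. In WT mice 9 of 11 mitotic and 7 of 8 crypt stem cell markers fell, and in KO mice 10 of 11 and 7 of 8. By the same test, given below, 1.24% of all genes fell in WT and 10% in KO mice. The part of dividing cells in the enzyme differences was not tested. Treated WT repeats 1 and 2 had high signals of squamous epithelium genes (11.85 and 10.36, against 4.35 to 8.70 on the other 30 arrays), and results that rest on them are given without them below. By Xist, which is transcribed in females, both sexes were present in equal numbers: it was high in 3 of 6 untreated and 5 of 10 treated mice of each genotype, in repeats 1 to 5 of both treated groups. Because whole tissue was measured, fewer cells of a type and less RNA per cell cannot be told apart.

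In WT mice few of these enzymes were called different between treated and untreated animals. A gene is called, here and below, at a Benjamini-Hochberg adjusted p under 0.05 in limma over all 18193 genes, and a change is a log2 difference ± its standard error (SE). Each SE uses 1 spread per gene, shared by all 4 groups. Wide spread among treated KO mice thus enters the other comparisons too. Of the 54 members 3 were called, 1 higher and 2 lower, where 1.84% of all genes (0.605% higher and 1.24% lower) and 2.58% of the genes above the same mean signal were called. The median difference of the members was -0.16, with 38 of 54 lower, while the median of all genes was 0. By family, 1 of 20 Cyp, 1 of 9 Ces, 0 of 2 Ugt, 1 of 17 Gst and 0 of 6 Sult genes were called, and at an unadjusted p under 0.05 both Ugt genes and 0 Sult genes passed. With only the WT arrays fitted 5 members were called, 0 higher and 5 lower.

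Ces2a, a carboxylesterase of the gut that hydrolyses esters and acylglycerols, was the strongest call in WT mice. Its log2 signal lay between 9.50 and 10.14 in untreated WT (median 9.92) and between 7.62 and 9.25 in treated WT mice (median 8.76). All 10 treated arrays lay below all 6 untreated ones. It fell by 1.25 ± 0.23, or 2.38-fold (adjusted p = 0.00457). Cyp2d26, a P450 of the Cyp2d subfamily, lay between 6.98 and 7.35 in untreated WT (median 7.15) and between 4.92 and 6.52 in treated WT mice (median 5.94), again without overlap. It fell by 1.27 ± 0.27 (adjusted p = 0.0126). With the mean of 9 macrophage and neutrophil markers as a covariate Ces2a was at -0.98 (adjusted p = 0.0579) and Cyp2d26 at -0.78 (adjusted p = 0.138). That marker mean was 7.06 ± 0.19 in untreated WT (SD, n = 6) and 7.77 ± 0.36 in treated WT mice (SD, n = 10), and its summed linear signal lay between 3083.1 and 4318 and between 3785.7 and 6083.7. Its part in these falls was not tested further. With the 3'/5' control difference (the signal of control probe sets near the 3' end of a transcript minus that near the 5' end, a sign of RNA integrity) as a covariate, Cyp2d26 was at -1.07 (adjusted p = 0.0864).

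Gsta4, a glutathione transferase with high activity towards the lipid peroxidation product 4-hydroxynonenal, was the only member that rose in WT mice. It ranged from 8.13 to 8.66 in untreated WT (median 8.52) and from 8.79 to 11.52 in treated WT mice (median 9.24). Every treated array lay above every untreated one, and treated WT repeat 1 stood far above the other 9, which ended at 9.92. The rise was 0.98 ± 0.26, or 1.97-fold (adjusted p = 0.0409). Leaving out any 1 of 10 arrays ended the call, at values from 0.91 to 1.02: treated WT repeats 2, 3, 6 and 7 and each of the 6 untreated WT arrays. The mean of the squamous epithelium markers was 11.85 on treated WT repeat 1, the array with the highest Gsta4. With the squamous epithelium and skeletal muscle means as covariates the rise was 0.62 (adjusted p = 0.215), and the call was lost. Without treated WT repeats 1 and 2 the rise was 0.66 (adjusted p = 0.0168), and with the macrophage and neutrophil mean as a covariate it was 0.82 (adjusted p = 0.217). In KO mice Gsta4 differed by 0.37 ± 0.26 with treatment (adjusted p = 0.354).

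In KO mice more of these enzymes were called lower after the same regimen, most of them conjugating enzymes. More genes were called over the whole array as well. Of the 54 members 22 were called (40.7%), 20 lower and 2 higher, where 18.7% of all genes (8.7% higher and 10% lower) and 26.1% of genes above the same mean signal were called, 14% of the latter lower and 12.1% higher. The median difference of the members was -0.29, with 36 of 54 lower, against 0 over all genes. In WT mice 38 of 54 were lower, so the share below 0 was not larger in KO mice. Glutathione transferases fell in 9 of 17 cases and P450 genes in 5 of 20, with 0 rises in both families, both Ugt genes fell, Ces genes fell in 2 and rose in 1 of 9 cases, and Sult genes fell in 2 and rose in 1 of 6. With only the KO arrays fitted 12 members were called, and 14 were called with each of 3 covariates: the 3'/5' control difference, the epithelial marker mean, and the macrophage and neutrophil mean. Both responses share no array, and the 2 members called in both, Ces2a and Cyp2d26, were lower in both. Under the macrophage and neutrophil covariate 2 other members were called and 10 of the 22 calls were lost: Cyp2c68, Cyp2s1, Gstm2, Gstm3, Gstm4, Gstm5, Gstm7, Gstt2, Sult1c2 and Ces1g.

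**Figure D1:**
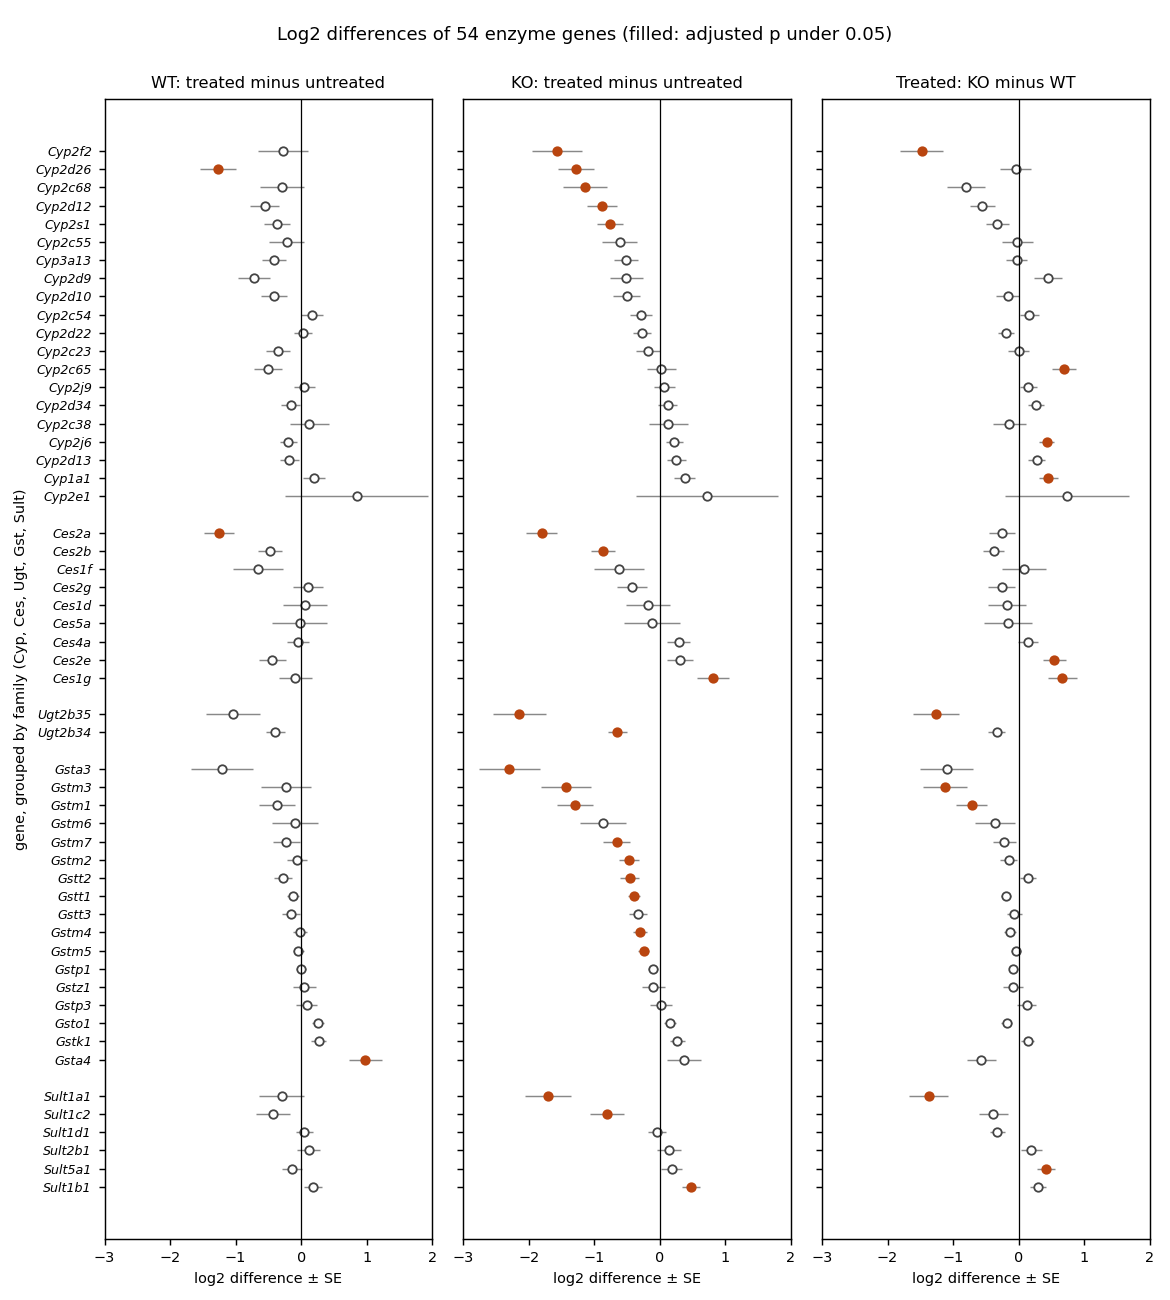
Log2 differences ± SE of the 54 enzyme genes (rows, by family and ordered by the KO response) for treated minus untreated WT, treated minus untreated KO, and treated KO minus treated WT mice. Filled points are called at an adjusted p under 0.05 over all genes: 3 in the first panel, 22 in the second and 11 in the third, where the Ugt, Gstm and Sult1a1 points lie left of 0 and several Cyp and Ces points right of it.

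The largest fall among the glutathione transferases was that of Gsta3, an alpha class enzyme that conjugates epoxides and also isomerizes steroid intermediates. Untreated KO arrays lay between 7.34 and 8.54 (median 8.02) and treated KO arrays between 3.72 and 8.23 (median 5.46). All but 1 of the treated arrays lay below the lowest untreated one, and the array at 8.23 was repeat 9. The fall was 2.30 ± 0.47, or 4.91-fold (adjusted p = 0.00104). In WT mice the same probe set differed by -1.20 ± 0.47 (adjusted p = 0.205), while a dimmer second probe set of Gsta3 fell in both genotypes (-1.06 in WT, adjusted p = 0.0384, and -1.53 in KO, adjusted p = 0.000193). The p-values of second and shared probe sets, here and below, are adjusted over all probe sets and not over genes. Gsta4, of the same class, did not fall, as given above, and a probe set shared by Gsta1, Gsta2 and Gm3776 differed by 0.20 ± 0.28 in KO mice (adjusted p = 0.718).

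The mu class transferases, which conjugate epoxides and other electrophiles and whose genes lie side by side on chromosome 3, were lower together. All 7 Gstm members were lower in treated than in untreated KO mice, at a median of -0.66, and all 7 were lower also after centring on medians and on the deposited scale. Of the 7, 6 fell: Gstm1 (-1.30 ± 0.28), Gstm3 (-1.43 ± 0.39), Gstm7 (-0.66 ± 0.21), Gstm2 (-0.47 ± 0.15), Gstm4 (-0.30 ± 0.10) and Gstm5 (-0.25 ± 0.08), at adjusted p from 0.00151 to 0.0374. Gstm6 was at -0.87 ± 0.35 and did not pass (adjusted p = 0.0845). Near-identical members of this class can share probes: the Gstm1 and Gstm3 probe sets used here carry the suffixes for probes that may match related transcripts. For Gstm1, which has 4 probe sets, all 4 fell (between -1.30 and -0.59), for Gstm3 the second was at -1.12 (adjusted p = 0.0677), and for Gstm7 the second was at 0.26 (adjusted p = 0.296), against the direction of the first. The smaller calls depended on the scaling and on covariates. After centring on medians the calls of Gstm2, Gstm4 and Gstm5 were lost, and on the deposited scale that of Gstm5. Those of Gstm2, Gstm4, Gstm5 and Gstm7 were each lost with the 3'/5' difference, the smooth muscle mean or the epithelial mean as a covariate. Single arrays decided them as well. Gstm2 was lost without untreated KO repeat 4 (-0.45), and Gstm7 without untreated KO repeat 2 or 5 (-0.59 and -0.61). Gstm4 was lost without any 1 of treated KO repeats 2, 3, 4, 5, 7 and 10 and untreated KO repeats 4, 5 and 6 (-0.30 to -0.24). Gstm5 was lost without any 1 of treated KO repeats 2, 3, 4, 5 and 10 and untreated KO repeats 2, 4, 5 and 6 (-0.25 to -0.20).

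Gstm1 and Gstm3 carried the size of this change. Gstm1 lay between 11.01 and 11.40 in untreated KO (median 11.30) and between 8.70 and 11.30 in treated KO mice (median 9.80). Gstm3 lay between 9.16 and 9.77 in untreated KO (median 9.51) and between 6.16 and 10.10 in treated KO mice (median 7.71). For Gstm1 9 of 10 and for Gstm3 8 of 10 treated KO arrays lay below the lowest untreated KO array, while the highest treated KO array of each, repeat 9, stood within or above the untreated range. With the macrophage and neutrophil mean as a covariate Gstm1 was at -0.93 (adjusted p = 0.0145) and Gstm3 at -0.78 (adjusted p = 0.0761). The theta class, which handles small halogenated compounds, was lower by less: Gstt1 fell by 0.39 ± 0.09 (adjusted p = 0.00321) and Gstt2 by 0.46 ± 0.14 (adjusted p = 0.0202), and Gstt3 was at -0.33 ± 0.14 (adjusted p = 0.0886). Gstp1, the pi class enzyme abundant in the gut, was among the brightest members and was at -0.10 ± 0.07 (adjusted p = 0.361), with all 16 KO arrays between 11.66 and 12.32.

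Both glucuronosyltransferases fell. Ugt2b35 lay between 8.10 and 8.54 in untreated KO (median 8.28) and between 4.89 and 8.49 in treated KO mice (median 5.76). It fell by 2.14 ± 0.41, or 4.41-fold (adjusted p = 0.000536), and 9 of 10 treated arrays lay below all untreated ones. Ugt2b34 fell by 0.65 ± 0.15 (adjusted p = 0.00225), from 11.54 to 10.89 on average, and its second probe set by 0.83 ± 0.15 (adjusted p = 0.000459). In WT mice Ugt2b34 was at -0.40 ± 0.15 (adjusted p = 0.177) although all 10 treated arrays lay below all 6 untreated ones, and Ugt2b35 was at -1.04 ± 0.41 (adjusted p = 0.206). The bilirubin-conjugating Ugt1a1 shares its probe sets with the rest of the Ugt1a locus and so is no member: the 3 probe sets of that locus differed by -0.27 to -0.06 in KO mice (adjusted p from 0.272 to 0.848).

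Among the sulfotransferases the direction differed by gene. Sult1a1, which sulfates phenols, lay between 11.01 and 11.42 in untreated KO (median 11.31) and between 8.08 and 11.25 in treated KO mice (median 9.43). It fell by 1.71 ± 0.35, or 3.27-fold (adjusted p = 0.00095), with 9 of 10 treated arrays below all untreated ones. Sult1c2 fell by 0.81 ± 0.26 (adjusted p = 0.0267), and this call was lost without any 1 of treated KO repeats 4 and 5 and untreated KO repeats 1, 2 and 5, at -0.79 to -0.72. Sult1b1, which sulfates thyroid hormones and small phenols, rose: it lay between 10.61 and 10.97 in untreated KO (median 10.82) and between 10.89 and 11.80 in treated KO mice (median 11.27), and 9 of 10 treated arrays lay above all untreated ones. Its rise was 0.48 ± 0.14 (adjusted p = 0.017), and with the epithelial marker mean as a covariate it was at 0.23 (adjusted p = 0.353). Sult1d1, a neighbour of Sult1b1 on chromosome 5, was at -0.04 ± 0.13 (adjusted p = 0.895). Sult2b1, a cholesterol sulfotransferase, was at 0.14 ± 0.18 (adjusted p = 0.669).

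Carboxylesterases of the Ces2 group, of which Ces2a, Ces2e and Ces2g start within 228.0 kb on chromosome 8, did not move as one. Ces2a lay between 10.02 and 10.44 in untreated KO (median 10.14) and between 7.48 and 9.05 in treated KO mice (median 8.52), with no overlap, and fell by 1.81 ± 0.23, or 3.50-fold (adjusted p = 7.88e-06). Ces2b lay between 7.37 and 8.16 in untreated KO and between 6.34 and 7.35 in treated KO mice, also with no overlap, and fell by 0.87 ± 0.18 (adjusted p = 0.00128). Ces2g was at -0.42 ± 0.23 (adjusted p = 0.218) and Ces2e at 0.31 ± 0.20 (adjusted p = 0.328). Ces1g, an esterase known for lipid handling, rose by 0.81 ± 0.25 (adjusted p = 0.0211), from 5.31 to 6.13 on average. This call was lost without untreated KO repeat 2 (0.60), the KO array with the lowest Ces1g signal, 4.26. Ces1f, the member of the family with the largest uncalled difference, was at -0.62 ± 0.38 (adjusted p = 0.282), and Ces1d at -0.18 ± 0.33 (adjusted p = 0.788).

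In KO mice 5 of the 20 P450 genes fell and 0 rose (limma). Cyp2f2, which bioactivates naphthalene in the airways, lay between 8.43 and 8.87 in untreated KO (median 8.65) and between 5.59 and 8.39 in treated KO mice (median 7.18), without overlap. It fell by 1.57 ± 0.38, or 2.98-fold (adjusted p = 0.0039), and with the epithelial marker mean as a covariate it was at -1.06 (adjusted p = 0.106). Cyp2d26 fell by 1.28 ± 0.27 (adjusted p = 0.00133), close to its fall in WT mice, from a range of 6.89 to 7.35 to one of 4.86 to 7.04. Cyp2d12 fell by 0.88 ± 0.22 (adjusted p = 0.00545), Cyp2s1, an extrahepatic P450 of epithelia, by 0.76 ± 0.20 (adjusted p = 0.00708), and Cyp2c68, of the Cyp2c subfamily, by 1.15 ± 0.34 (adjusted p = 0.0161). With the macrophage and neutrophil mean as a covariate Cyp2s1 was at -0.48 (adjusted p = 0.0665) and Cyp2c68 at -0.65 (adjusted p = 0.142). Cyp2c68 was lost also with the 3'/5' difference (-1.01, adjusted p = 0.0599) and the epithelial marker mean (-0.97, adjusted p = 0.121) as covariates, and both were lost with only the KO arrays fitted (adjusted p = 0.109 for Cyp2c68 and 0.0678 for Cyp2s1). Cyp2d22 counts as not called (-0.28 ± 0.14), although its second, slightly dimmer probe set fell by 0.57 ± 0.14 (adjusted p = 0.00513) and was also lower in treated KO than in treated WT mice, by -0.43 ± 0.12 (adjusted p = 0.0213). Cyp3a13, the main intestinal Cyp3a gene of these arrays, just missed the threshold (-0.51 ± 0.19, adjusted p = 0.0507), although its 10 treated KO arrays (9.18 to 10.24) all lay below the 6 untreated ones (10.29 to 10.46). Cyp2c55, a bright colonic P450, was at -0.61 ± 0.27 (adjusted p = 0.112).

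**Figure D2:**
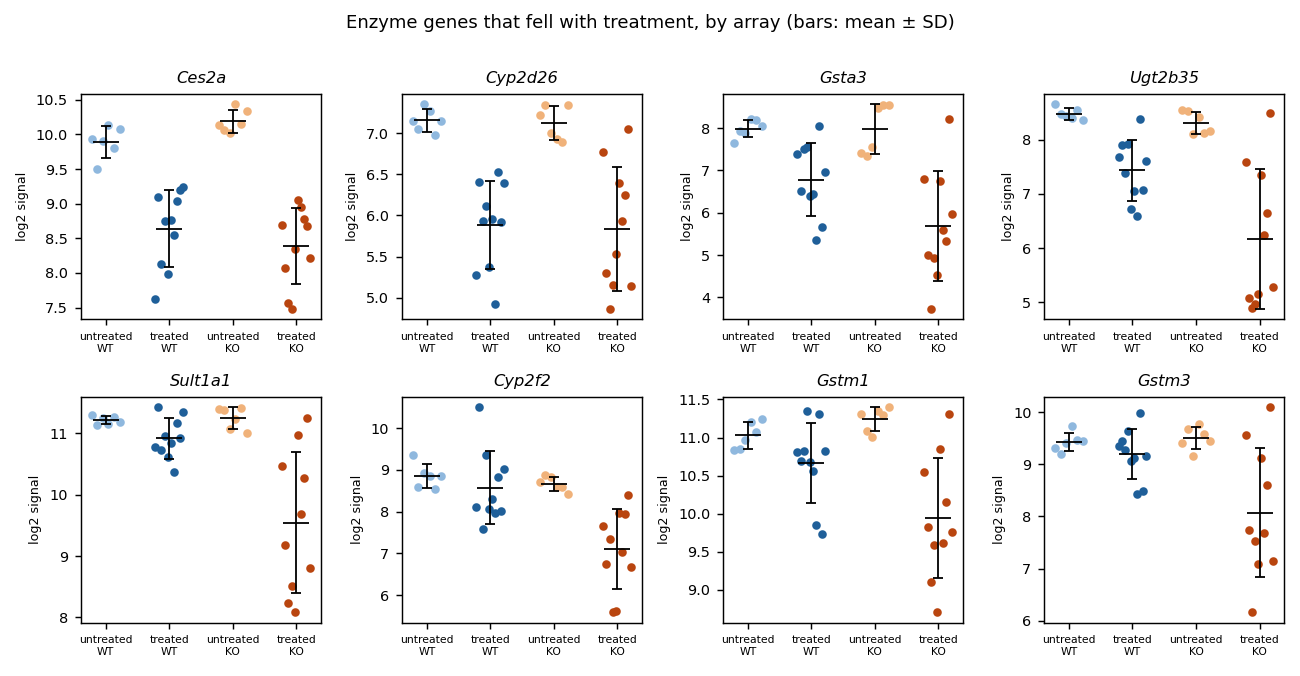
Log2 signal of 8 enzyme genes on each of the 32 arrays (points, 1 a mouse) by group, with the group mean ± SD as bars. Ces2a and Cyp2d26 are lower in both treated groups. Sult1a1, Ugt2b35, Gstm1 and Gstm3 spread widely among the 10 treated KO mice, Sult1a1 from 8.08 to 11.25. They spread less among treated WT mice and least in the untreated groups.

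Cyp2e1, the enzyme best known for activating AOM, varied widely between mice and passed in no comparison. It spanned 3.73 to 8.97 in untreated WT, 3.67 to 11.15 in treated WT, 3.71 to 9.02 in untreated KO and 5.12 to 10.56 in treated KO mice. All 4 groups overlapped. The treated minus untreated difference was 0.85 ± 1.09 in WT (adjusted p = 0.8) and 0.72 ± 1.09 in KO mice (adjusted p = 0.723). Adipocyte markers, of which 4 were measured, varied with it: across the 10 treated WT arrays Cyp2e1 and the adipocyte mean correlated at r = 0.951 (permutation adjusted p = 0.00048; rho = 0.952, adjusted p = 0.0012; r = 0.92 without the 2 arrays farthest from the median), and across the 10 treated KO arrays at r = 0.815 (permutation adjusted p = 0.012; rho = 0.794, adjusted p = 0.023; r = 0.823 without the 2 farthest). The adipocyte mean ranged from 4.63 to 9.53 in treated WT and from 4.75 to 7.10 in untreated WT mice, with summed linear signals of 409 to 14734.1 and 488.4 to 1996.2, and 1 of the 4 markers lay at the floor on all arrays of each untreated group. The pair was chosen after its values were seen.

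The comparison of the genotypes within treated mice asks how enzyme levels compare with and without Myd88 after the regimen. Of the 54 members 11 were called (20.4%), 5 lower and 6 higher in KO than in WT mice, where 12.8% of all genes (6.57% lower and 6.24% higher) and 18.4% of genes above the same mean signal were called. The 20.4% was thus close to the 18.4%. Both it and the 6 higher count Cyp1a1, which met the minimum only through its treated KO signal, so neither is free of how members were chosen. The share higher among the called members was 54.5% with Cyp1a1 counted. Median centring gave 66.7% and the deposited scale, where Cyp1a1 was not called, 37.5%. The members' median difference was -0.11, with 35 of 54 lower, against 0 over all genes. This comparison shares the treated KO arrays with the KO response, so values of both are set side by side only. Of the 11, 5 fell in the KO response as well, 1 rose in it and 5 did not pass in it.

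The members lower in treated KO mice were Cyp2f2, Sult1a1, Ugt2b35, Gstm3 and Gstm1. Treated WT arrays held Cyp2f2 between 7.58 and 10.51 (median 8.20), against 5.59 to 8.39 (median 7.18) in treated KO mice, a difference of -1.48 ± 0.33 (adjusted p = 0.00361). Sult1a1 lay between 10.37 and 11.43 in treated WT mice (median 10.89), and 7 of 10 treated KO arrays lay below that range. The difference was -1.37 ± 0.30 (adjusted p = 0.00328). Ugt2b35 lay between 6.59 and 8.38 in treated WT mice (median 7.49), with 6 of 10 treated KO arrays below, and differed by -1.26 ± 0.35 (adjusted p = 0.0175). Groups overlapped for all 5. Gstm3 differed by -1.13 ± 0.33 (adjusted p = 0.0239), a call lost without treated KO repeat 5 (-1.02). Its second probe set was at -0.62 (adjusted p = 0.323). Gstm1 differed by -0.72 ± 0.24 (adjusted p = 0.046), and this call held in 6 of the 32 fits that left out 1 array. It was kept without treated WT repeat 7 or 9 or treated KO repeat 1, 6, 8 or 9 and lost without any other, at -0.73 to -0.58. The other Gstm1 probe sets were at -0.76 (adjusted p = 0.0485), -0.54 (adjusted p = 0.112) and -0.21 (adjusted p = 0.551). The calls of Gstm3 and Gstm1 were both lost with the probe sets of a gene averaged and with each array centred on its median. As ratios, these 5 differences ran from 1.65-fold to 2.79-fold.

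The 6 members higher in treated KO than in treated WT mice differed by 0.42 to 0.69. Cyp1a1, the classic target of the aryl hydrocarbon receptor, lay between 4.64 and 5.34 in treated WT (median 4.95) and between 4.60 and 6.04 in treated KO mice (median 5.38), with 6 of 10 treated KO arrays above the treated WT range. It is among the members only through its treated KO signal, so its place among the 6 is no support for a rise. Cyp2c65, a colonic P450, was higher by 0.69 ± 0.19 (adjusted p = 0.0128), Ces1g by 0.67 ± 0.22 (adjusted p = 0.0383) and Ces2e by 0.55 ± 0.18 (adjusted p = 0.0387). Cyp2j6 was higher by 0.43 ± 0.11 (adjusted p = 0.0107), while its second probe set was at 0.15 ± 0.08 (adjusted p = 0.261), and Sult5a1 was higher by 0.42 ± 0.14 (adjusted p = 0.0413). Cyp2c65 and Ces2e set the treated groups apart partly through WT mice: with treatment they were at -0.50 ± 0.21 and -0.44 ± 0.20 in WT and at 0.02 ± 0.21 and 0.31 ± 0.20 in KO mice, and none of these 4 differences passed (adjusted p from 0.256 to 0.987).

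**Figure D3:**
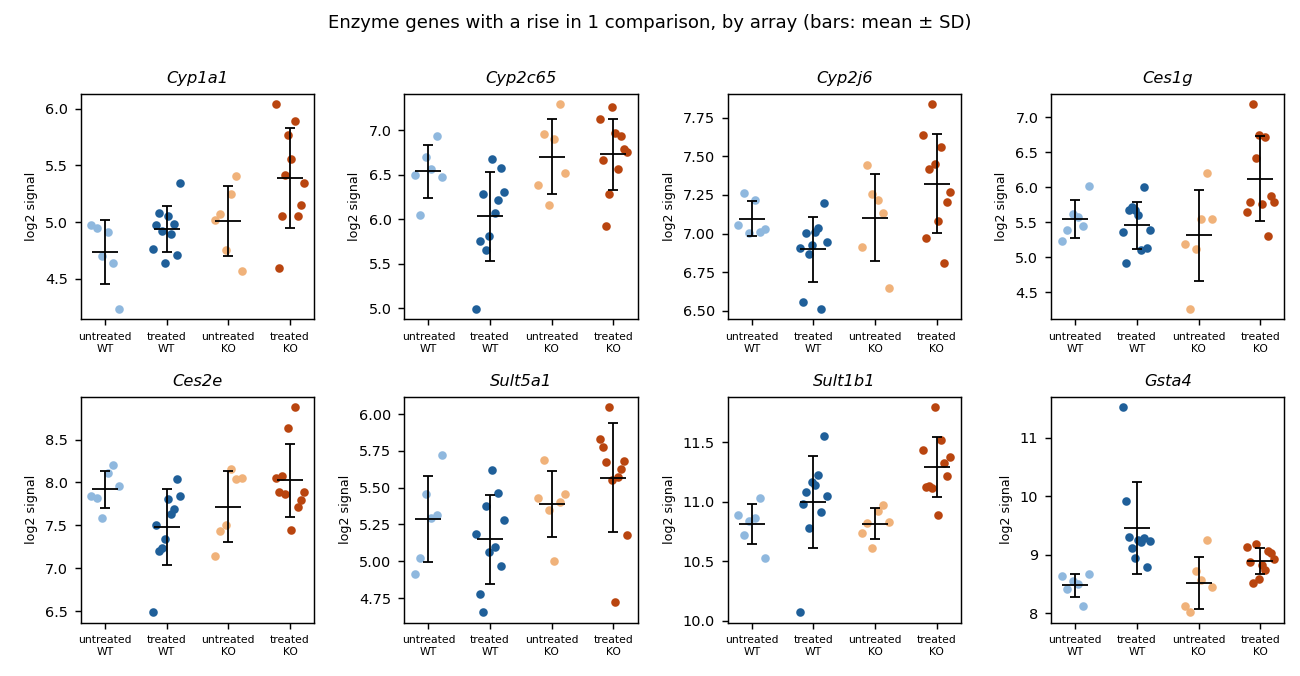
Log2 signal of 8 enzyme genes that were called higher in at least 1 comparison, on each of the 32 arrays (points, 1 a mouse) by group, with the group mean ± SD as bars. Treated KO and treated WT arrays overlap for each gene, and Gsta4 is highest in treated WT mice, where repeat 1 stands at 11.52.

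These calls were sensitive to single arrays and to a covariate. Without treated WT repeats 1 and 2 only 5 members were called (1 higher and 4 lower in KO), though Cyp2c65 (0.53), Ces1g (0.59), Ces2e (0.42) and Sult5a1 (0.38) kept their direction. Among those lower, Cyp2f2 (-1.30) and Sult1a1 (-1.32) stayed called and Ugt2b35 (-1.17, adjusted p = 0.054), Gstm3 (-1.08, adjusted p = 0.062) and Gstm1 (-0.70, adjusted p = 0.0979) did not. The count was 6 without treated WT repeat 2, 7 without treated WT repeat 5, and 7, 7, 5 and 7 without treated KO repeats 3, 4, 5 and 7. Ces1g lost its call when 1 of treated WT repeats 1, 2, 7, 9 and 10 was omitted or 1 of treated KO repeats 3, 4, 5 and 7, at 0.55 to 0.66. Ces2e lost it without treated WT repeat 1, 2, 3, 4 or 5 or treated KO repeat 3, 5 or 7, at 0.44 to 0.55. Sult5a1 lost it without treated WT repeat 1, 2, 3, 5, 7 or 9 or treated KO repeat 1, 2, 3, 4, 5, 7, 8 or 9, at 0.36 to 0.42. Epithelial markers were also higher in treated KO mice: 9 of 9 were higher and 3 were called (33.3%, against 6.24% of all genes called higher), at a median of 0.20, with summed linear signals of 35540.1 to 47915.2 in treated WT and 44825.1 to 55014.5 in treated KO mice. Absorptive colonocyte markers had 6 of 13 called higher, at a median of 0.31, and goblet markers 4 of 8, at a median of 0.19, with 0 called lower in both lists. The part of these 2 lists was not tested. With the epithelial mean as a covariate 0 of the 11 calls remained (limma), at -1.24 for Sult1a1 (adjusted p = 0.0764), -1.01 for Cyp2f2 (adjusted p = 0.184) and -0.97 for Ugt2b35 (adjusted p = 0.27). With the squamous epithelium and skeletal muscle means as covariates Cyp2f2, Sult1a1, Ugt2b35, Gstm3 and Cyp2j6 stayed called and the other 6 did not.

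Whether the responses of the genotypes differ was tested as the interaction, the KO response minus the WT response. It called 0 of 54 members in limma (7 at an unadjusted p under 0.05, and 0 in each of the other fits run), where 0.055% of all genes were called. Sult1a1 had the largest value, -1.41 ± 0.49 (adjusted p = 0.237), followed by Cyp2f2 (-1.30 ± 0.54, adjusted p = 0.335) and Gstm3 (-1.20 ± 0.55, adjusted p = 0.385). Ces1g had the largest positive value (0.90 ± 0.35, adjusted p = 0.302). All 17 Gst members were below 0 (16 of 17 on the deposited scale and after centring on medians), at a median of -0.26, against -0.16 over the 54 members and -0.0005 over all genes. The interaction equals the genotype difference in treated mice minus that in untreated mice, and the medians of the 17 Gst members were -0.15 and 0.14 in these. For no single member was a larger change in KO than in WT mice shown by this test.

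Without treatment no member passed the test between genotypes. Of 54 members 0 were called in limma (1 at an unadjusted p under 0.05, and 0 in each of the other fits run), where 0.115% of all genes were called. The member below that unadjusted threshold was Cyp2c54, higher in untreated KO by 0.61 ± 0.19 (adjusted p = 0.413). Sult1a1 differed by 0.04 ± 0.39, Ugt2b35 by -0.16 ± 0.46 and Gstm1 by 0.21 ± 0.31. These SEs use the spread shared by all 4 groups, which was widest in treated KO mice, and so overstate the spread of untreated mice. The SDs in untreated WT and untreated KO mice were 0.06 and 0.18 for Sult1a1. They were 0.11 and 0.20 for Ugt2b35 and 0.17 and 0.16 for Gstm1. With only the untreated arrays fitted 0 members were called as well. Of the 54 members 37 were higher in untreated KO than in untreated WT mice, at a median of 0.06. Of the 17 Gst members 15 were higher, at a median of 0.14, among them Gstm6 (0.42 ± 0.39, adjusted p = 0.924), Gstt2 (0.32 ± 0.16, adjusted p = 0.696) and Gstm2 (0.26 ± 0.17, adjusted p = 0.798). The KO response and the interaction both use these untreated KO arrays.

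Treated KO mice differed widely among themselves in most of the members that fell. In 16 of the 20 the SD was over 2 times that of untreated KO mice, and in the other 4 (Ces2b, Gstt1, Gstm4 and Gstm5) it was within 1.5 times of it. Sult1a1, Ugt2b35, Gstm1 and Gstm3 spread more in treated than in untreated WT mice as well. Their SDs there were 0.33 against 0.06, 0.57 against 0.11, 0.53 against 0.17 and 0.47 against 0.18. Such ratios were not counted for the other members in WT mice or over all genes, so the spread is not shown to be particular to these members. In treated KO mice Sult1a1 was at 8.08, 8.23, 8.51, 8.80 and 9.18 in repeats 5, 3, 4, 10 and 2. It was at 9.69 in repeat 7, and at 10.27, 10.47, 10.97 and 11.25 in repeats 8, 1, 6 and 9. The last of these stood inside the untreated KO range, and the other 9 lay below that range. Ugt2b35 was at 5.16, 4.89, 4.96, 5.28 and 5.09 in the same first 5 repeats and at 6.23, 6.64, 7.59, 7.34 and 8.49 in the others, so the mice low for Sult1a1 were low for Ugt2b35 as well. Xist was high in repeats 1 to 5, and thus in 4 of the 5 mice lowest for Sult1a1 and in 1 of the 4 highest. With Xist as a covariate Sult1a1 was at -1.72 in the KO response (adjusted p = 0.000762), and the counts of called members were 3 in the WT response, 23 in the KO response and 12 between treated genotypes. Across the 10 treated KO arrays Sult1a1 correlated with Ugt2b35 at r = 0.95 (permutation adjusted p = 0.00048; rho = 0.891, adjusted p = 0.0058), with Gstm3 at r = 0.935 (adjusted p = 0.00048; rho = 0.952, adjusted p = 0.0012), with Gstm1 at r = 0.945 (adjusted p = 0.00024; rho = 0.964, adjusted p = 0.0012) and with Cyp2f2 at r = 0.846 (adjusted p = 0.01; rho = 0.842, adjusted p = 0.014). Without the 2 arrays farthest from the median of Sult1a1 these were 0.918, 0.892, 0.889 and 0.747. The pairs were chosen after their values were seen, 24 relations were computed in all, and the genes share their arrays.

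**Figure D4:**
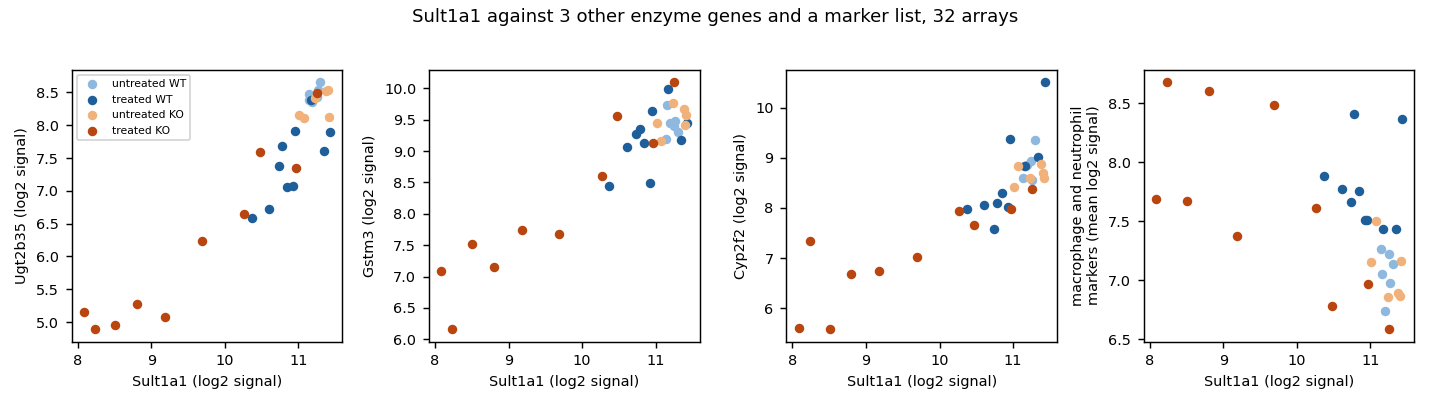
Sult1a1 (x axis, log2 signal) against Ugt2b35, Gstm3, Cyp2f2 and the mean of 9 macrophage and neutrophil markers (y axes, log2 signal) on the 32 arrays, coloured by group. Treated KO arrays run along a line with r of 0.95, 0.935 and 0.846 in the first 3 panels and fall with rising markers in the fourth (r = -0.709), while both untreated groups stay in 1 corner.

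Inflammatory cell markers ran against this gradient in KO mice. The mean of the 9 macrophage and neutrophil markers lay between 6.58 and 8.68 in treated KO mice, with summed linear signals of 2427.6 to 9150.1, and was lowest in repeat 9, where Sult1a1 was highest. Repeat 9 stood apart in other markers as well. Its crypt stem cell mean was 7.63 (treated KO median 6.40, untreated KO 7.80 to 7.95). Its skeletal muscle mean was 10.22 (treated KO median 6.34). Both were the highest of the treated KO mice, and what sets this mouse apart was not tested. Over the 10 arrays the macrophage and neutrophil mean correlated with Sult1a1 at r = -0.709 (permutation adjusted p = 0.063; rho = -0.794, adjusted p = 0.023), and at -0.489 without the 2 arrays farthest from the median of Sult1a1, so that the linear relation rests partly on those arrays. In treated WT mice the same correlation was -0.062 (adjusted p = 0.9; rho = -0.413, adjusted p = 0.4; -0.566 without the 2 farthest). Epithelial markers showed r = -0.138 in treated KO mice (adjusted p = 0.79; rho = -0.103, adjusted p = 0.82; -0.065 without the 2 farthest). The part of inflammatory cells in the falls was not tested further than by the covariate given above, under which Sult1a1 was at -1.22 (adjusted p = 0.00838), Ugt2b35 at -1.58 (adjusted p = 0.00482) and Gsta3 at -1.74 (adjusted p = 0.0104) in the KO response, while the 10 members named above lost their calls.

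In treated WT mice Sult1a1 moved in a narrower range and with another measure. It correlated with Ugt2b35 at r = 0.746 (permutation adjusted p = 0.035; rho = 0.745, adjusted p = 0.041; 0.617 without the 2 farthest) and with Cyp2f2 at r = 0.787 (adjusted p = 0.018; rho = 0.842, adjusted p = 0.014; 0.701 without the 2 farthest). With Gstm3 and Gstm1 the values were 0.539 (adjusted p = 0.23; rho = 0.612, adjusted p = 0.15; 0.282 without the 2 farthest) and 0.432 (adjusted p = 0.39; rho = 0.455, adjusted p = 0.38; 0.244 without the 2 farthest). The 3'/5' control difference correlated with Sult1a1 at r = 0.892 in these 10 mice (adjusted p = 0.0025; rho = 0.939, adjusted p = 0.0012; 0.836 without the 2 farthest), against 0.342 in treated KO mice (adjusted p = 0.51; rho = 0.382, adjusted p = 0.44; -0.085 without the 2 farthest). Its part in the WT correlations was not tested, and whether the correlations differ between the genotypes was not tested.

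The promoters of the 5 members that were lower in treated KO mice by both comparisons are shown with those of Gsta3, the largest fall, and Cyp1a1, shown only as the known Ahr target among the members. Each runs 5′ to 3′ on the strand of the gene, from 250 bases before to 50 bases after the RefSeq start, on GRCm38.p6, where 43 of the 54 members had such a window. Capitals mark matches, on either strand, to the core of the Ahr site GCGTG or to the antioxidant response core TGACNNNGC, which NRF2 can bind.
Cyp2f2: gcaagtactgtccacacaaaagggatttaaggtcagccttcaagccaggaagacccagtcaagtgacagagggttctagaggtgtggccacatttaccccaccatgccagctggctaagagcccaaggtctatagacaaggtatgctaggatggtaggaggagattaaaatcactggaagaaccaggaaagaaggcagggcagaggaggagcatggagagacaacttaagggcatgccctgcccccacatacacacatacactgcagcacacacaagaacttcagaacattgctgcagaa
Sult1a1: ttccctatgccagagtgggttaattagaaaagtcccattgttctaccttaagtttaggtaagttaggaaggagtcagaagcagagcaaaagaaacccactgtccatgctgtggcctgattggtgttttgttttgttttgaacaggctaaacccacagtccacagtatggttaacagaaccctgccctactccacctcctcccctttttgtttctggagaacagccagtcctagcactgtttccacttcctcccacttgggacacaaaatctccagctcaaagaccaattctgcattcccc
Ugt2b35: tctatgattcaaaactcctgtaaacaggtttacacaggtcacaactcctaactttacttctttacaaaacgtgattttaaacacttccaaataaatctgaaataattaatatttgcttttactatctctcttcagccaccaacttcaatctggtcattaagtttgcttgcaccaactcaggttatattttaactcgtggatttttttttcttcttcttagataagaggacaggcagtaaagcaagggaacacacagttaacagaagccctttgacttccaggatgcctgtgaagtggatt
Gstm1: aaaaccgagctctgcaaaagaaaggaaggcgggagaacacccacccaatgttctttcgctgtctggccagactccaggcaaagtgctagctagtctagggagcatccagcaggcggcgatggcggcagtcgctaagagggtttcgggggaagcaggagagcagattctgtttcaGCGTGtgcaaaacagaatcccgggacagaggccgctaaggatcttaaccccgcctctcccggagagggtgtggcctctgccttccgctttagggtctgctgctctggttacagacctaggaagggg
Gstm3: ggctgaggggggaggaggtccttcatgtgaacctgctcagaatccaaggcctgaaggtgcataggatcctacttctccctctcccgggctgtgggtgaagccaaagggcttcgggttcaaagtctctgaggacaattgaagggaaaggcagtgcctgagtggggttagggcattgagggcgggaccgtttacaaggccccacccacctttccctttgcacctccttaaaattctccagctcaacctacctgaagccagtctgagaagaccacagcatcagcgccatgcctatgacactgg
Gsta3: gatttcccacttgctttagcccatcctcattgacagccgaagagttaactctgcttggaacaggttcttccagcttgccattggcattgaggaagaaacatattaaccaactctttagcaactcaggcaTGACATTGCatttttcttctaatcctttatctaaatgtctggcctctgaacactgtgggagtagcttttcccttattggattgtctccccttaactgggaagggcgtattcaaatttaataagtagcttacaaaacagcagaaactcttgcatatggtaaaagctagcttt
Cyp1a1: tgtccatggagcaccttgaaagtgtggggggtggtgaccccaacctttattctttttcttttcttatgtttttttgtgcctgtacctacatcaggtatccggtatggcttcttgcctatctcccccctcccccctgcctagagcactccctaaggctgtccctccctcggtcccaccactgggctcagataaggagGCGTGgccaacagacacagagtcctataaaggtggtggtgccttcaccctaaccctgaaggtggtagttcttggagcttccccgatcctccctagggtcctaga

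In genome coordinates these windows are chr7:27119705-27120004 (plus strand) for Cyp2f2, chr7:126676369-126676668 (minus) for Sult1a1, chr5:87000610-87000909 (plus) for Ugt2b35, chr3:108017924-108018223 (minus) for Gstm1 and chr3:107969125-107969424 (minus) for Gstm3. Those of Gsta3 and Cyp1a1 are chr1:21240335-21240634 (plus) and chr9:57697363-57697662 (plus). Counted from the start as 0, Cyp1a1 holds GCGTG at -54 to -50, Gstm1 holds it at -76 to -72, and Gsta3 holds the antioxidant response core TGACATTGC at -121 to -113. A second, overlapping RefSeq window of Gstm1 holds the same site. The other 4 windows hold neither motif. GCGTG lies in 23.08% of the 52 windows of members (10 genes) and in 32.39% of all 32851 windows of the same length, and TGACNNNGC in 9.62% (5 genes) and 12.39%. In Gstm5 a match to TGACNNNGC overlaps one to GCGTG. The windows of the 7 Gstm genes, some of which have several, lie between 107895604 and 108045109 of chromosome 3, a stretch of 149.5 kb.

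The sensors that govern these families were called in KO mice at a share between those of all genes and of brighter genes. Among 25 measured regulators 4 rose and 2 fell with treatment (24%, against 18.7% of all genes and 26.1% of genes above the minimum signal), at a median of 0.05, and 0 were called in WT mice in limma (3 at an unadjusted p under 0.05). Cebpb, an inflammation-responsive factor, rose by 0.88 ± 0.24, Nr1h4, the bile acid receptor, by 0.75 ± 0.17, Cdx2, an intestinal identity factor, by 0.75 ± 0.17 and Mafk by 0.42 ± 0.14. Ppara, a fatty acid sensor, fell by 0.90 ± 0.21 and Foxa2 by 0.74 ± 0.21, all 6 at adjusted p from 0.00232 to 0.0412. Ahr was lower in treated KO than in treated WT mice (-0.31 ± 0.09, adjusted p = 0.0179) and was at -0.06 ± 0.10 in the KO response (adjusted p = 0.747). Nr1i2 and Nfe2l2 were at -0.24 ± 0.14 (adjusted p = 0.27) and -0.08 ± 0.08 (adjusted p = 0.574) in the KO response and were called in no comparison.

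Genes of the NRF2 programme did not share a direction, and 26.7% of them were called in the KO response, close to the 26.1% of genes above the minimum signal. In the KO response 2 of 15 rose, Hmox1, heme oxygenase (1.24 ± 0.35, adjusted p = 0.0135), and Srxn1, sulfiredoxin (0.78 ± 0.15, adjusted p = 0.000438). The 2 that fell were Gpx2, the gastrointestinal glutathione peroxidase (-0.57 ± 0.20, adjusted p = 0.0425), and Ephx1, microsomal epoxide hydrolase (-0.50 ± 0.12, adjusted p = 0.00359). Nqo1, a quinone reductase often used to read NRF2 activity, was at -0.13 ± 0.19 (adjusted p = 0.707). In WT mice 1 of 15 was called: Gclm, a subunit of the enzyme that limits glutathione synthesis, fell by 0.47 ± 0.09 (adjusted p = 0.00732). Between the treated genotypes Gclm (0.36 ± 0.08), Txnrd1 (0.25 ± 0.08), Srxn1 (0.70 ± 0.13) and Slc7a11 (0.54 ± 0.17) were higher and Ephx1 lower (-0.44 ± 0.10) in KO mice, at adjusted p from 0.000612 to 0.0346.

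Of 29 measured partner enzymes and cofactor suppliers 12 fell and 1 rose in KO mice (44.8%), at a median of -0.22. Of all genes 18.7% were called, 10% lower and 8.7% higher. Among genes above the minimum signal 26.1% were called, 14% lower and 12.1% higher. Ugdh, which makes the glucuronic acid donor used by Ugt enzymes, fell by 0.71 ± 0.15 (adjusted p = 0.00121), and Papss1, which makes the sulfate donor used by Sult enzymes, by 0.38 ± 0.13 (adjusted p = 0.0401). Both were also lower in treated KO than in treated WT mice, by -0.51 ± 0.13 (adjusted p = 0.00834) and -0.60 ± 0.11 (adjusted p = 0.000851). Papss2, which makes the same sulfate donor, was at 0.06 ± 0.12 in the KO response (adjusted p = 0.828) and at 0.27 ± 0.10 between the treated genotypes (adjusted p = 0.0931), and Ugp2, which makes UDP-glucose, the substrate of Ugdh, was at 0.06 ± 0.07 in the KO response (adjusted p = 0.678). The largest falls were in Aldh1b1, a mitochondrial aldehyde dehydrogenase (-1.25 ± 0.16, adjusted p = 7.88e-06), Cbr3, a carbonyl reductase (-1.09 ± 0.24, adjusted p = 0.00191), Aldh3a1 (-1.06 ± 0.27, adjusted p = 0.00654) and Fmo1, a flavin monooxygenase (-0.93 ± 0.24, adjusted p = 0.0059). Akr1b8, an aldo-keto reductase, rose by 0.74 ± 0.17 (adjusted p = 0.00273). In WT mice 2 of 29 were called, both lower: Aldh1b1 (-0.84 ± 0.16, adjusted p = 0.0059) and Mgst2 (-0.51 ± 0.12, adjusted p = 0.0273).

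Of the exporters and uptake carriers of these compounds, 14.3% were called in KO mice (18.7% of all genes) and 21.4% in WT mice (1.84% of all genes). Among genes above the minimum signal the shares were 26.1% and 2.58%. In KO mice 2 of 14 fell, Abcb1a, the P-glycoprotein pump (-0.60 ± 0.15, adjusted p = 0.00437), and Slc15a1, a peptide and drug carrier (-0.49 ± 0.18, adjusted p = 0.0475). In WT mice 3 of 14 fell, the same 2 genes (-0.62 ± 0.15 and -0.67 ± 0.18, adjusted p = 0.0241 and 0.0427) and Slco2a1, a prostaglandin carrier (-0.55 ± 0.13, adjusted p = 0.0214). Abcg2, a pump of sulfate and glucuronide conjugates, was higher in treated KO than in treated WT mice by 0.79 ± 0.14 (adjusted p = 0.000494).

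The 43 family genes at or under the minimum signal gave 0 rises and 3 falls in the KO response, where 4.53% of all genes at or under that signal were called, and 1 fall in the WT response, where 0.432% were. Between the treated genotypes 1 of the 43 was called, against 2.18%. Ces1e fell in both, by 1.29 ± 0.30 in WT (adjusted p = 0.0219) and by 1.55 ± 0.30 in KO mice (adjusted p = 0.000621), with 1 of 10 and 4 of 10 treated arrays at the floor of the scale, so that the differences may be too small. Cyp3a11 (-0.41 ± 0.13) and Gstt4 (-0.31 ± 0.11) were called in the KO response with 6 and all 10 treated KO arrays at the floor. Of the 6 untreated KO arrays 2 and 4 were at the floor too, so the Gstt4 call rests on the few untreated KO arrays above it. Ces2f was lower in treated KO than in treated WT mice by -1.02 ± 0.30 (adjusted p = 0.0219). Of the 54 members 26 were called in none of the 5 comparisons, among them Gstp1, Cyp2e1, Cyp2c55, Sult1d1 and Ces1d.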

How the data were processed

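Total RNA from the distal colon of 32 mice was hybridized to 1 Affymetrix mouse array each. The values are log2 signals deposited by the authors, with each array scaled to a 2% trimmed mean of 150.9 to 151.28 and a floor of 10 on the linear scale, as the values themselves show. The software that summarised the probes is not given in the sources used here. Log2 signals were quantile normalized over 45101 probe sets, after which 64 control probe sets were left out and the brightest probe set with 1 symbol was kept for each of 18193 genes. Group means of all 32 arrays were fitted in limma 3.58.1 under R 4.3.3, with 28 residual and 1.101 prior degrees of freedom, and p-values, two-sided, were Benjamini-Hochberg adjusted over all genes. The scripts were tested on simulated data.

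The members, gene lists and tests were chosen with earlier results of these data known. Genes were named by a rule: up to the 8 largest called rises and falls of each comparison, the largest uncalled member of each family in the KO response, and a set list of well-known members and regulators. Other members are named to complete a family or the calls, and were chosen after their values were seen. The labels number mice within groups as biological repeats. Between each 2 groups, correlations of same-numbered arrays had medians from -0.107 to 0.049, with single values from -0.291 to 0.369. These values cannot show that the numbers carry no shared structure, and Xist was high in the low-numbered repeats. The numbers were not treated as pairs, and a fit with them as a block is given below. Alternatives covered scaling, the choice of probe set, the low-signal filter, the arrays fitted, the prior, array weights, covariates, the threshold and each array left out in turn. The covariate of macrophage and neutrophil markers was added after seeing the data. Proteins and full transcripts were not analysed here, and neither was Por, the reductase that supplies P450 enzymes.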

Additional observations from a re-analysis of the deposited data

Results flagged for a closer look

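Of 112 sets of arrays tested (28 genes in 4 groups), 6 held 1 array that stood apart by Dixon's gap test, and chance alone gives about 1 in 20. Treated WT repeat 1 accounted for 4 of the 6. Its Gsta4 signal was 11.52, against 8.79 to 9.92 in the other 9 treated WT mice. Its Cyp2d12 signal was 7.5, against 8.24 to 8.74, its Sult1c2 signal was 7.34, against 8.27 to 8.97, and its Sult1b1 signal was 10.07, against 10.78 to 11.55. The same array had the highest mean of squamous epithelium markers of all 32, 11.85. With the squamous epithelium and skeletal muscle means as covariates the WT rise of Gsta4 was 0.62 (adjusted p = 0.215), against 0.98 without them, and their part in the values of the other 3 genes was not tested. In untreated KO mice Gstt1 was at 9.35 in repeat 5, against 8.79 to 8.98 in the other 5, and Gstt2 was at 8.78 in repeat 3, against 9.05 to 9.2.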

How the results depend on the processing

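Of 36 called differences, 0 changed sign in 17 other settings and 32 fits without 1 array, 9 were called in all of these and 23 in all fits without 1 array. Called members in the WT response numbered 3, and were 5 with only the compared groups fitted, 8 with array weights, 1 with the 3'/5' covariate, 0 with the macrophage and neutrophil covariate and 1 at an adjusted p under 0.01. In the KO response they numbered 22, and were 12 with only the compared groups, 14 with the 3'/5', the epithelium or the macrophage and neutrophil covariate, and 13 at an adjusted p under 0.01. Between treated genotypes they numbered 11, and were 4 with only the compared groups, 5 with the 3'/5' covariate, 0 with the epithelium covariate, 2 at an adjusted p under 0.01 and 5 without treated WT repeats 1 and 2. The cause of these shifts was not tested. Without 1 array the counts ran from 2 to 3, from 18 to 25 and from 5 to 15, and stayed at 0 for the interaction and the untreated comparison.

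With the repeat number as a replicate block the counts were 2, 22 and 8, and 0 for the interaction and the untreated comparison. The lowest correlations of same-numbered arrays ran from -0.291 to -0.068 and the highest from 0.08 to 0.369. Median centring moved the median of all genes by at most 0.0665 and the count in the KO response to 16. The calls lost there were those of Gstm2, Gstm4, Gstm5, Gstt1, Gstt2 and Sult1c2. Signals near the floor understate differences, and with 6 untreated mice a group small changes may be missed.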
